A study of Mus musculus with 11 samples.

Results

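Gene expression was compared between a Nono knockout line of NIH/3T3 cells and wild-type NIH/3T3 cells, both kept for 24 h without serum. NIH/3T3 is an established line of mouse embryonic fibroblasts, and serum withdrawal stops its division and lets it form a primary cilium. Samples were grouped by their labels, as the 3 libraries of Nono KO against the 2 libraries of WT, which are 5 of the 11 libraries of the series. Of the 21684 genes in the table, 13332 were expressed highly enough to be tested. The other libraries came from Xap5 KO and Sox5 KO lines, 3 each, grown and starved for the same 24 h, and they served to show where Nono KO also differed from other knockout lines. All 4 groups were seeded at low density in medium with calf serum, and the labels give no drug or other agent. The labels name no separate clones, so each knockout was taken as 1 line, and what a line carries from its own derivation cannot be told apart from the loss of its gene. Nothing in the labels says that replicates came from separate cultures, so p-values measure only the spread between these libraries, which may be technical.

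NONO belongs to the DBHS family of nuclear proteins, together with SFPQ and PSPC1, which bind RNA and DNA as dimers, take part in transcription, splicing and DNA repair, and build the nuclear bodies called paraspeckles. It has also been studied as a partner of the circadian clock. Fibroblasts make and remodel collagen-rich matrix, and they can take on a contractile, myofibroblast character with smooth muscle actin. The gene lists below are described by how many tested members were higher or lower at an adjusted p under 0.05 (edgeR's quasi-likelihood test, Benjamini-Hochberg over all tested genes, written "edgeR adjusted p"). Levels are in CPM, the usual depth-scaled count on the TMM-scaled library size, and fold changes are log2 values of Nono KO against WT with their standard error (SE).

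Nono itself (ENSMUSG00000031311, chromosome X) was measured at 357 and 351 CPM in WT and 33.95, 34.00 and 27.6 CPM in Nono KO (log2 fold change -3.47, SE 0.0791, edgeR adjusted p = 2.44e-18). The knockout libraries therefore kept 8.99% of the WT level, and no knockout library came near WT. Xap5 KO had 448, 447 and 415 CPM and Sox5 KO had 409, 462 and 444 CPM. Residual RNA of a targeted gene does not show whether protein is made. The paralog Pspc1 was at 20.4 and 22.1 CPM in WT and 51.6, 50.8 and 54.5 CPM in Nono KO (log2 fold change 1.2995, SE 0.121, edgeR adjusted p = 1.31e-08). It also differed from Xap5 KO by 1.47 and from Sox5 KO by 1.38, both called. Sfpq, the third family member, was at 366 and 366 CPM in WT and 386, 400.2 and 387 CPM in Nono KO, a log2 difference of 0.10 that was not called (edgeR adjusted p = 0.151) and was -0.07 with library-total scaling.

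So many genes differed between the lines that every count below has to be read against a high background: 48.6% of tested genes were called in either direction, 23.5% (3134) higher and 25.1% (3342) lower. Changes of at least 2-fold were fewer, 6.5% of genes (867) higher and 4.68% (624) lower. Scaling by library totals in place of TMM factors shifted the median of all genes by -0.16 and gave 2157 higher and 4989 lower, so that 30.18% of calls were higher against 48.39%. Depth ran from 30205878 to 43498383 counts a library, and a tested gene had a median count of 1002. Mitochondrial genes took 6.20% and 6.28% of counts in WT and 7.43%, 7.98% and 7.11% in Nono KO. Collagen genes took 1.17% and 1.14% of counts in WT and 3.07%, 2.95% and 3.53% in Nono KO. Fold changes fell slightly with transcript length, from a median of 0.10 in the 2659 shortest genes to -0.10 in the 2659 longest. Whole chromosomes were displaced too: the median gene was at 0.35 on chromosome 9, 0.27 on chromosome 16, -0.20 on chromosome 5 and -0.33 on chromosome X. The part of length and of chromosome in single genes was tested only through the alternatives listed at the end.

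Markers were used to check the cell type. Of the 14 fibroblast markers all were tested, 11 were higher, none was lower (2 with library-total scaling), and their summed level was 25310 to 25470 CPM in the WT libraries and 51620 to 56510 CPM in Nono KO. The other 3, Pdgfra, Pdgfrb and S100a4, were not called. Of 12 epithelial markers, 11 had no or too few counts and 6 were at 0 in all 5 libraries. The summed level of 9 endothelial markers was 14.9 to 16.6 CPM in WT and 4.70 to 7.36 CPM in Nono KO, with 3 of them at 0, and most of it in WT was Vwf, the von Willebrand factor gene, at 14.96 and 12.7 CPM in WT and 2.02, 2.34 and 1.55 CPM in Nono KO (log2 fold change -2.80). Tek was higher by 2.70, a call lost without Nono KO replicate 1 or either WT library. Of 10 skeletal muscle markers 4 were at 0, and their sum stayed at or under 1.80 CPM. The 11 cartilage and bone markers, some of which fibroblasts also express, summed to 421 to 422 CPM in WT and 271 to 302 CPM in Nono KO, with 1 of 8 tested higher and 3 lower. The 10 neural markers summed to 17.99 to 21.6 CPM in WT and 39.5 to 45.98 CPM in Nono KO, and 2 of 5 tested, Map2 and Nes, were higher. In bulk RNA, more cells of a type and more RNA per cell cannot be told apart.

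**Figure D1:**
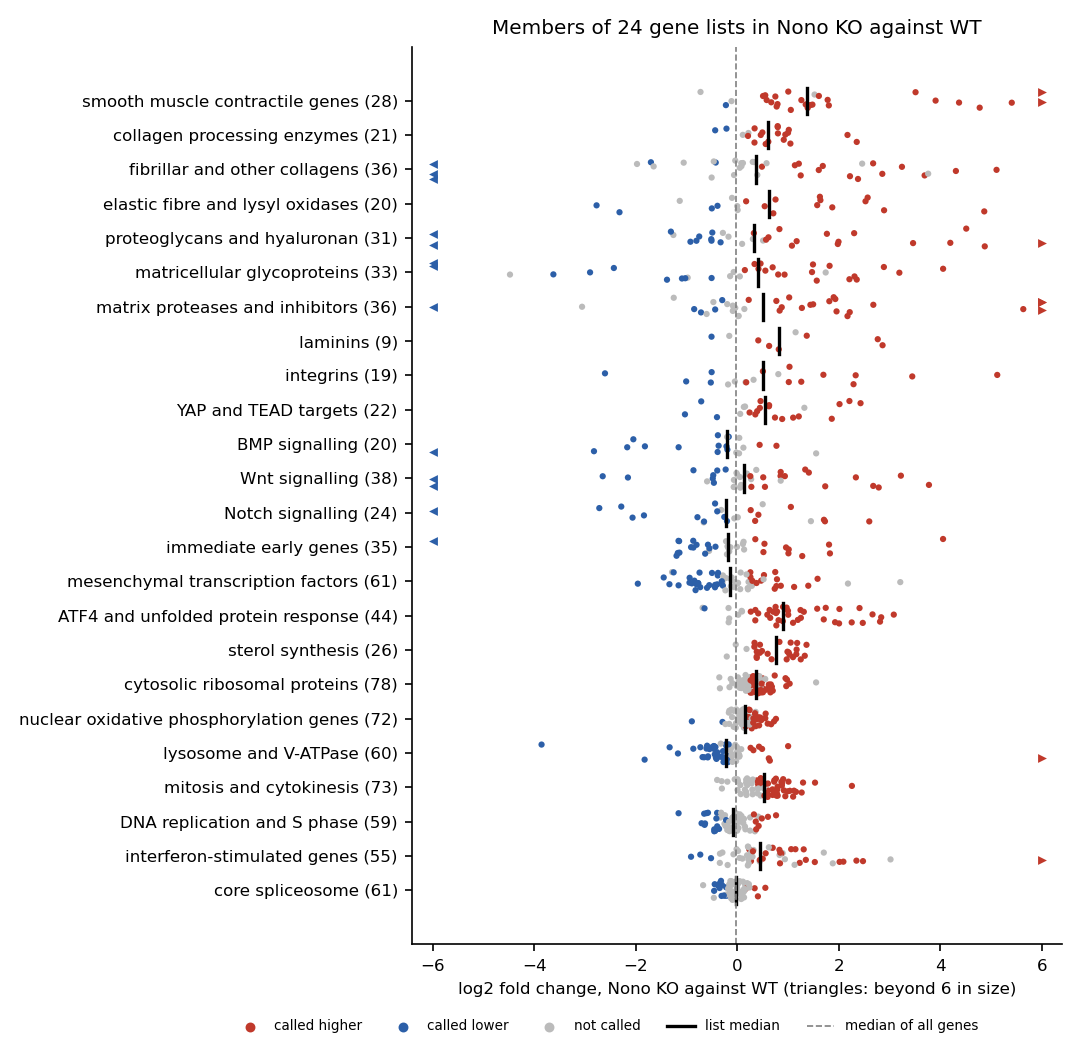
Each point is 1 tested gene of a list (number tested in parentheses), placed by its log2 fold change in Nono KO against WT, with genes called higher in red, called lower in blue and not called in grey; black bars are list medians and the dashed line is the median of all genes. The contractile list has the rightmost median at 1.37, the BMP list lies left of the dashed line at -0.21, and the mitosis, sterol and ribosomal protein lists have no blue points.

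Of 36 tested collagen genes, 14 were higher and 5 lower, with a median log2 fold change of 0.36 against -0.02 for all genes (0.32 with genes at 0 in a group set to their lower bound). The chains of type I and type III collagen, the main fibrils of connective tissue, were higher. Col1a1, a chain of type I collagen, was measured at 1124 and 1055 CPM in WT and 6735, 6002 and 8182 CPM in Nono KO (log2 fold change 2.68, SE 0.113, edgeR adjusted p = 2.14e-11). Col1a2, its partner chain, was at 3293 and 3251 CPM in WT and 10069, 9608 and 11908 CPM in Nono KO (log2 fold change 1.69, SE 0.0819, edgeR adjusted p = 3.77e-13). Col3a1, the type III chain of elastic connective tissue, was at 403 and 355 CPM in WT and 4688, 4554 and 5469 CPM in Nono KO (log2 fold change 3.69, SE 0.109, edgeR adjusted p = 2.92e-14). For these 3 genes every Nono KO library lay above every WT library, which was true in one direction or the other for 65.5% of all tested genes.

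Among minor fibrillar and fibril-associated chains, some were higher and others were not called. Col12a1, which decorates the fibril surface, was at 46.2 and 43.7 CPM in WT and 848, 878 and 948 CPM in Nono KO (log2 fold change 4.31). Col11a1, a fibril-nucleating chain typical of cartilage, was at 2.26 and 1.45 CPM in WT and 63.02, 61.01 and 67.5 CPM in Nono KO (log2 fold change 5.11). Type V chains, which set fibril diameter, were higher for Col5a1 (1.61), Col5a2 (2.86) and Col5a3 (2.38). The basement membrane chains were split, since Col4a1 and Col4a2 were higher by 1.21 and 1.25 and Col4a6 was lower at -1.70. Col15a1, a basement membrane-zone collagen, was nearly lost, with 40.9 and 42.9 CPM in WT and 0.0987, 0 and 0.331 CPM in Nono KO (log2 fold change -8.23, SE 0.649, edgeR adjusted p = 1.87e-05, -7.63 without Nono KO replicate 2 and -9.65 without Nono KO replicate 3). It was also low in Xap5 KO, at 0, 0.438 and 0 CPM, and stayed at 43.9, 39.04 and 45.7 CPM in Sox5 KO. Of the collagen genes, 12 were higher in Nono KO than in WT and than in each other knockout line, where 8.71% of all genes met that rule.

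Enzymes that fold, modify and secrete collagen were mostly higher: 17 of 21 tested were higher and 2 lower, with a median of 0.61. Sparc, a secreted collagen chaperone, was at 485 and 486 CPM in WT and 2444, 2470.0 and 2535 CPM in Nono KO (log2 fold change 2.36, SE 0.0687, edgeR adjusted p = 8.09e-17). Adamts2, the protease that removes the amino-terminal propeptide of procollagen, was at 56.6 and 57.5 CPM in WT and 248, 245 and 279 CPM in Nono KO (log2 fold change 2.17). Serpinh1, the collagen chaperone of the endoplasmic reticulum, was at 426 and 409.9 CPM in WT and 849, 844 and 900.3 CPM in Nono KO (log2 fold change 1.05). No library overlapped between the groups for these 3 genes, as was so for 65.5% of all tested genes. The prolyl hydroxylase subunits P4ha1 and P4ha2 were higher by 1.00 and 1.02, while Bmp1, the carboxy-propeptide protease, was slightly lower at -0.21 and lost its call without Nono KO replicate 1 or either WT library, which left 1 member lower, and with the offset for length and GC.

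Small leucine-rich proteoglycans, which bind collagen fibrils and tune their assembly, were among the genes that were higher. In the list of proteoglycan and hyaluronan genes 15 of 31 were higher and 10 lower, with a median of 0.33, and 11 were higher than in all 3 other groups. Aspn (asporin) was at 5.19 and 5.79 CPM in WT and 549, 528 and 676 CPM in Nono KO (log2 fold change 6.73, SE 0.191, edgeR adjusted p = 3.39e-10). Prelp was at 13.8 and 12.4 CPM in WT and 369, 419 and 366 CPM in Nono KO (log2 fold change 4.88). Ogn (osteoglycin) was at 12.95 and 12.01 CPM in WT and 204, 199 and 284 CPM in Nono KO (log2 fold change 4.20), and Lum (lumican) was higher by 1.98. In Xap5 KO Aspn and Ogn were far below Nono KO, at 16.6, 14.4 and 12.6 and 16.6, 12.6 and 7.34 CPM, whereas Prelp reached 335, 303 and 212 CPM there. Bcan and Ncan, large hyaluronan-binding proteoglycans of neural tissue, were at 0 in every Nono KO library. Bcan had 40 and 38 counts in WT and Ncan 42 and 17. With the floor of 3 counts per library their falls were at least 11.2-fold and 8.62-fold. Among the other lower members, Cd44, the hyaluronan receptor, was at 449 and 455 CPM in WT and 183, 200.3 and 165 CPM in Nono KO (log2 fold change -1.31), Gpc1 (glypican) was lower at -0.92, and the hyaluronidase Hyal1 was lower at -0.80, a call lost without WT replicate 2. Cemip, which degrades hyaluronan, was higher by 1.77.

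**Figure D2:**
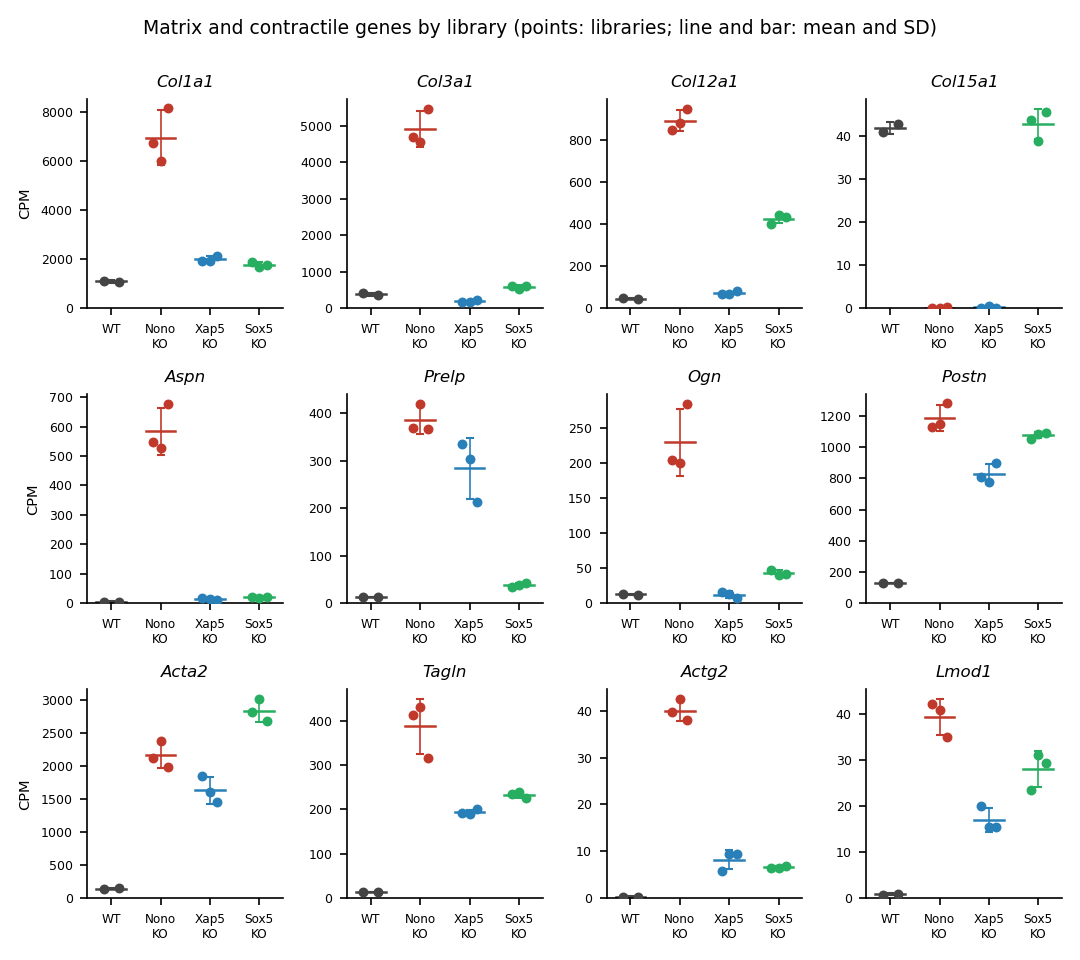
CPM (linear axis from 0) of 12 matrix and contractile genes in each library of the 4 groups, with the group mean as a line and the SD as a bar. Nono KO libraries are far above WT for every gene but Col15a1, and for Aspn they are at least 528 CPM while no library of another group passes 22.6 CPM.

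Of 20 tested genes of elastic fibres and lysyl oxidases, 12 were higher and 4 lower, with a median of 0.63. Fbn1, the scaffold protein of microfibrils, was at 61.1 and 59.8 CPM in WT and 362, 352 and 362 CPM in Nono KO (log2 fold change 2.57, SE 0.0768, edgeR adjusted p = 1.26e-16). Mfap4, a microfibril-associated protein, was at 0.719 and 0.3404 CPM in WT and 15.3, 13.9 and 17.2 CPM in Nono KO (log2 fold change 4.87, 5.49 without WT replicate 1), and the elastin-binding Fbln5 was higher by 1.87. Lox, the enzyme that cross-links collagen and elastin, was at 1633 and 1618 CPM in WT and 4589.6, 4732 and 5221 CPM in Nono KO (log2 fold change 1.58). Among the lower members, Ltbp4, which tethers latent TGF-beta to microfibrils, was at 52.1 and 51.1 CPM in WT and 6.42, 7.99 and 8.29 CPM in Nono KO (log2 fold change -2.77). Eln, elastin itself, was at 1.29 and 1.61 CPM in WT and 0.419, 0.195 and 0.249 CPM in Nono KO. Its log2 fold change of -2.32 was called (edgeR adjusted p = 0.0262). Leaving out Nono KO replicate 2 or 3 or either WT library ended that call, as did the replicate block.

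Matricellular and linker glycoproteins of the matrix had 18 of 33 higher and 9 lower, with a median of 0.42. Postn (periostin) was at 131 and 128 CPM in WT and 1129.8, 1149 and 1281 CPM in Nono KO (log2 fold change 3.20, SE 0.0778, edgeR adjusted p = 6.95e-18). Thbs1 (thrombospondin), an activator of latent TGF-beta, was at 267 and 255 CPM in WT and 1919, 2036 and 1855 CPM in Nono KO (log2 fold change 2.89). The basement membrane linker Nid2 was at 6.20 and 7.33 CPM in WT and 100.4, 97.1 and 141 CPM in Nono KO (log2 fold change 4.06). Members of the CCN family went opposite ways, with Ccn1 at 2.21, Ccn4 at 2.31 and Ccn3 at -3.62. Ccn3 fell from 38.95 and 34.8 CPM in WT to 3.08, 3.09 and 2.79 CPM, and Sparcl1, a relative of Sparc, fell from 771 and 789.9 CPM to 95.3, 114 and 105 CPM.

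Matrix proteases and their inhibitors had 19 of 36 higher and 5 lower, with a median of 0.50. Mmp3 (stromelysin) had 0 counts in both WT libraries and 976, 917 and 853 counts in Nono KO, which is at least 313-fold higher against a floor of 3 counts per library. The aggrecanase-type protease Adamts1 was at 145 and 142 CPM in WT and 526, 536 and 583 CPM in Nono KO (log2 fold change 1.93), and Adamts9 was at 12.9 and 12.9 CPM in WT and 87.1, 81.4 and 80.3 CPM in Nono KO (log2 fold change 2.68). Plau, the urokinase that activates plasminogen, was at 3.40 and 3.65 CPM in WT and 17.4, 15.7 and 16.1 CPM in Nono KO (log2 fold change 2.22). Mmp11 was lower at -0.85. Under library-total scaling 10 members of this list were lower in place of 5.

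Of 19 genes of integrins, the cell receptors for matrix, 10 were higher and 4 lower, with a median of 0.51. Itga1, the alpha chain of a collagen receptor, was at 0.868 and 0.204 CPM in WT and 19.8, 19.2 and 16.4 CPM in Nono KO (log2 fold change 5.12, SE 0.344, edgeR adjusted p = 3.56e-10, 6.48 without WT replicate 1 and 4.41 without WT replicate 2). Itga11, the fibroblast receptor for fibrillar collagen, was at 8.76 and 9.67 CPM in WT and 42.6, 49.9 and 47.1 CPM in Nono KO (log2 fold change 2.33). The common beta chain Itgb1 was higher by 0.51. Itga2, another collagen receptor chain, was at 3.08 and 2.56 CPM in WT and 0.345, 0.244 and 0.801 CPM in Nono KO, and its call (log2 fold change -2.61, -3.25 without Nono KO replicate 3) was lost without either WT library and without Nono KO replicate 1 or 2. The count of lower integrins was 2 without WT replicate 1. Of 9 laminin genes 6 were higher and 1, Lama2, was lower at -0.51, a call lost in all but 1 of the fits without a library and with either offset. The highest was Lama4, a chain of mesenchymal and vascular basement membranes, at 68.6 and 66.1 CPM in WT and 486, 481 and 504 CPM in Nono KO (log2 fold change 2.86). Among 19 cadherins and protocadherins 8 were higher and 5 lower, including Cdh11, the fibroblast cadherin, at 65.7 and 65.7 CPM in WT and 203, 218 and 228 CPM in Nono KO (log2 fold change 1.72).

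Among the 51 lists other than cell type markers, smooth muscle contractile genes had the highest median, 1.37. Of 28 tested members 24 were higher and 1 was lower, and 13 were higher than in every other group. Acta2, smooth muscle alpha-actin, was at 139.7 and 149 CPM in WT and 2128, 2382 and 1995 CPM in Nono KO (log2 fold change 3.91, SE 0.109, edgeR adjusted p = 9.04e-15). Tagln, the actin-binding protein transgelin, was at 13.6 and 14.6 CPM in WT and 413, 431 and 317 CPM in Nono KO (log2 fold change 4.78). Myl9, a regulatory myosin light chain, was at 4.32 and 3.29 CPM in WT and 80.1, 87.9 and 67.6 CPM in Nono KO (log2 fold change 4.37). WT and Nono KO libraries did not overlap for these 3 genes, nor for 65.5% of all tested genes. Actg2, the enteric smooth muscle actin, was at 0.372 and 0.2496 CPM in WT and 39.6, 42.4 and 37.9 CPM in Nono KO (log2 fold change 7.00), and the actin nucleator Lmod1 was at 0.794 and 1.04 CPM in WT and 42.2, 40.9 and 34.99 CPM in Nono KO (log2 fold change 5.41). Acta2 was higher still in Sox5 KO, at 2823, 3018 and 2679.8 CPM, while Tagln, at 236, 239 and 226 CPM there and 192, 189.9 and 200.2 CPM in Xap5 KO, was highest in Nono KO. The member that was lower was Mrtfb, a coactivator of SRF, at -0.22, a call lost without WT replicate 2 and with the offset for length and GC. The low sum of skeletal muscle markers is given above.

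SRF binds the CArG box, a 10-base element of many contractile promoters, so the 250 bases before the start of each gene were searched for it on both strands in RefSeq promoter windows of GRCm38.p6. The letters searched were CCWWWWWWGG, with W for A or T, and boxes that depart from them were not counted. No other motif was searched in this list. Of the 24 tested members with a window, 5 held a CArG box, where 1.39% of the 10396 tested genes with a window and 1.47% of all 32851 windows held one. All 5 were called higher, but so were 22 of the 24, so the calls do not set members with a box apart. A match is a description of the letters and not a shown binding site. The windows of 4 members with the box are shown, with the box in capitals, read 5′ to 3′ on the gene's strand. They lie at chr17:46556180-46556279 (minus strand, Srf), chr2:156775268-156775347 (plus strand, Myl9), chr14:20929148-20929215 (plus strand, Vcl) and chr10:79988509-79988588 (plus strand, Cnn2).
Srf: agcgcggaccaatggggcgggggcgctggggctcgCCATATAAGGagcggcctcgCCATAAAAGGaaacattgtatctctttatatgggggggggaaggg
Myl9: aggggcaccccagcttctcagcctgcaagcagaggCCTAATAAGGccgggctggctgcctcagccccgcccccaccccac
Vcl: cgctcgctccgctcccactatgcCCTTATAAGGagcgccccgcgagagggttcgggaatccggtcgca
Cnn2: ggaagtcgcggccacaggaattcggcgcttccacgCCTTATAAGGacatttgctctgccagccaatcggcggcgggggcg
Srf, which encodes the factor itself and holds 2 boxes that start 82 and 62 bases before its start, was at 45.97 and 41.2 CPM in WT and 70.2, 75.2 and 74.7 CPM in Nono KO (log2 fold change 0.75, edgeR adjusted p = 4.09e-08). Vcl (vinculin), which couples actin to adhesions, was at 146 and 151 CPM in WT and 494, 537 and 525 CPM in Nono KO (log2 fold change 1.81). Cnn2, a calponin, was at 267 and 270.4 CPM in WT and 684, 710.4 and 658 CPM in Nono KO (log2 fold change 1.35). The WT and Nono KO libraries did not overlap for these genes or for Myl9, nor for 65.5% of all tested genes. Acta2, Tagln and Actg2 were called higher with no box of exactly these letters found in the window or with no window. Boxes with other letters or farther from the start were not searched.

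Targets of YAP and TEAD, the mechanosensitive transcription pathway, had 15 of 22 higher and 3 lower, with a median of 0.54. Ccn1 was at 47.1 and 39.1 CPM in WT and 205, 212 and 181 CPM in Nono KO. Amotl2, a feedback inhibitor of the pathway, was at 123 and 124 CPM in WT and 655, 649 and 691 CPM in Nono KO (log2 fold change 2.43), and Ankrd1 was at 7.12 and 8.87 CPM in WT and 29.5, 36.6 and 31.04 CPM in Nono KO (log2 fold change 2.02). Ccn2, the target most often used as a readout, rose less, by 0.46, and lost its call without Nono KO replicate 1 or WT replicate 1, with library-total scaling and with only the Nono KO and WT libraries fitted. The receptor kinase Axl went the other way, from 1327 and 1317 CPM to 811, 879 and 735 CPM (log2 fold change -0.71).

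Genes of the BMP pathway were mostly lower. BMP ligands act through SMAD proteins to switch on the Id genes, which encode inhibitors of basic helix-loop-helix factors. Of 20 tested genes of the pathway 12 were lower and 2 higher, with a median of -0.21. Id1 was measured at 61.1 and 63.3 CPM in WT and 13.3, 13.98 and 14.3 CPM in Nono KO (log2 fold change -2.17, SE 0.0876, edgeR adjusted p = 1.96e-14). Id2 was at 49.5 and 51.8 CPM in WT and 7.55, 6.62 and 7.29 CPM in Nono KO (log2 fold change -2.82, SE 0.111, edgeR adjusted p = 1.15e-14). Id3 was at 95.8 and 107 CPM in WT and 26.6, 25.4 and 34.1 CPM in Nono KO (log2 fold change -1.82, SE 0.115, edgeR adjusted p = 6.09e-10). All Nono KO libraries were below all WT libraries for the 3 genes, and libraries did not overlap for 65.5% of all tested genes. Id1 and Id3 were also lower than in Xap5 KO (-1.92 and -1.02) and Sox5 KO (-1.43 and -1.22), all called. Id2 did not meet the rule of being lower than in all 3 other groups. Of the list, 3 genes met it. The list's median differences from Xap5 KO and Sox5 KO were 0.07 and 0.14. Smad9, a receptor-activated SMAD, was at 19.4 and 26.5 CPM in WT and 5.28, 6.55 and 4.81 CPM in Nono KO (log2 fold change -2.05), and Smad5, another, was lower by a smaller amount, at -0.39. The receptors Bmpr1a, Bmpr2 and Acvr1, at 0.12, 0.04 and 0.04, were not called, and with library-total scaling they stood at -0.04, -0.13 and -0.12. Grem1, a secreted BMP antagonist, had 5209 and 5820.0 counts in WT and 0 in every Nono KO library, at least 1577-fold lower, and the antagonist Chrd was at 7.17 and 8.76 CPM in WT and 13.4, 14.8 and 12.6 CPM in Nono KO (log2 fold change 0.77).

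TGF-beta and activin genes showed no common direction, with 11 of 30 higher and 11 lower and a median of 0.04 (-0.12 with library-total scaling, which left 7 higher). Ligands were split: Tgfb2 was at 36.1 and 35.2 CPM in WT and 78.1, 72.3 and 97.5 CPM in Nono KO (log2 fold change 1.21), Tgfb1 was at 127 and 128 CPM in WT and 71.5, 79.1 and 67.9 CPM in Nono KO (log2 fold change -0.81), and Inhba, the activin A subunit, was at 11.2 and 10.9 CPM in WT and 48.2, 50.9 and 41.04 CPM in Nono KO (log2 fold change 2.08). The receptors also parted, since Tgfbr2 was higher by 1.08 and Tgfbr1 lower at -0.67. Among feedback genes, the inhibitory Smad7 was lower at -1.08, while the activin antagonist Fst was at 0.372 and 1.32 CPM in WT and 5.85, 5.16 and 6.96 CPM in Nono KO (log2 fold change 2.81, 2.19 without WT replicate 1 and 4.00 without WT replicate 2).

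Wnt genes had 15 of 38 higher and 10 lower, with a median of 0.13 that turned to -0.03 under library-total scaling. Of these, 12 were higher in Nono KO than in all 3 other groups. Sfrp1, a secreted Wnt antagonist, was at 36.9 and 39.8 CPM in WT and 382, 345 and 349.8 CPM in Nono KO (log2 fold change 3.23, SE 0.0859, edgeR adjusted p = 1.74e-17). Rspo2, a secreted enhancer of Wnt signalling, was at 0.149 and 0.635 CPM in WT and 5.03, 4.82 and 6.60 CPM in Nono KO (log2 fold change 3.78, 3.11 without WT replicate 1 and 5.18 without WT replicate 2). The receptors Fzd4 and Fzd1 were higher by 2.79 and 1.73, and Fzd3 was lower, at 26.3 and 23.4 CPM in WT and 4.02, 3.92 and 3.92 CPM in Nono KO (log2 fold change -2.65). Axin2, a direct target and inhibitor of the pathway, was at 0.397 and 0.272 CPM in WT and 1.90, 1.88 and 1.33 CPM in Nono KO (log2 fold change 2.34), and Lef1, another target, was lower at -0.48.

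In the Notch list 7 of 24 were higher and 11 lower, with a median of -0.23. The ligand Jag1 was at 9.18 and 9.49 CPM in WT and 53.5, 49.9 and 66.7 CPM in Nono KO (log2 fold change 2.60, SE 0.141, edgeR adjusted p = 2.18e-12). The receptor Notch1 was at 25.1 and 23.6 CPM in WT and 4.47, 6.26 and 6.77 CPM in Nono KO (log2 fold change -2.06), and Notch2 was higher by 0.42. Dlk1, a non-canonical ligand and imprinted gene of preadipocytes, was at 1590.0 and 1519 CPM in WT and 312, 325 and 320.0 CPM in Nono KO (log2 fold change -2.29). The target gene Hes1 was at 4.64 and 4.92 CPM in WT and 13.8, 16.4 and 16.8 CPM in Nono KO (log2 fold change 1.71).

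Guidance genes, which steer axons and migrating cells, were called in all but 5 of 35 cases, 14 higher and 16 lower, where 48.6% of all genes were called. Sema3c was at 1.61 and 0.704 CPM in WT and 23.7, 20.6 and 29.7 CPM in Nono KO (log2 fold change 4.43, 5.13 without WT replicate 1), and Slit3, a Robo ligand, was higher by 2.39. Plxnc1 was at 0.174 and 0 CPM in WT and 1.14, 1.02 and 2.07 CPM in Nono KO, a ratio of 16.7 (95% interval 7.91 to 42.1, exact and for counting error only). Plxnb1, a semaphorin receptor, was at 42.3 and 42.3 CPM in WT and 9.65, 8.62 and 12.6 CPM in Nono KO (log2 fold change -2.04), and Ntn1 (netrin) was lower at -1.64. Eph receptors and ephrins had 5 of 17 higher and 4 lower, with Epha7 at 3.62 and 3.59 CPM in WT and 17.03, 21.9 and 19.8 CPM in Nono KO (log2 fold change 2.44) and the ligands Efna1 and Efnb1 lower at -0.94 and -0.93.

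Insulin-like growth factor genes were higher at the level of ligands and of the proteases that release them. Igf1 was at 0.248 and 2.04 CPM in WT and 8.14, 10.9 and 9.61 CPM in Nono KO (log2 fold change 3.03, SE 0.565, edgeR adjusted p = 0.00246, 2.23 without WT replicate 1 and 5.26 without WT replicate 2). Igf2, an imprinted fetal growth factor, was at 3.42 and 0.635 CPM in WT and 37.2, 35.7 and 41.5 CPM in Nono KO (log2 fold change 4.26, 5.90 without WT replicate 1 and 3.48 without WT replicate 2). Pappa2, which cleaves IGF-binding proteins, was at 18.2 and 17.5 CPM in WT and 309, 318 and 338 CPM in Nono KO (log2 fold change 4.17), while Xap5 KO had 20.5, 22.4 and 27.2 CPM and Sox5 KO 11.8, 17.05 and 15.8 CPM. In total 10 of 18 IGF genes were higher and 5 lower, and the insulin receptor gene Insr was slightly lower, at -0.33. The number lower was 3 without WT replicate 1. Other secreted factors went both ways, 10 of 31 higher and 9 lower, among them Angpt1 at 0.844 and 1.02 CPM in WT and 10.2, 11.5 and 12.8 CPM in Nono KO and its antagonist Angpt2 at 6.92 and 5.88 CPM in WT and 1.97, 1.46 and 1.68 CPM in Nono KO (log2 fold changes 3.61 and -1.90). Of 25 growth factor receptors 4 were higher and 10 lower, with 6 lower without WT replicate 2 and 2 higher without either WT library. Egfr was at 5.76 and 4.83 CPM in WT and 1.92, 2.14 and 2.40 CPM in Nono KO, and its call (log2 fold change -1.29) was lost without either WT library or Nono KO replicate 1.

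Immediate early genes and the feedback genes of ERK signalling, which serum switches on in these cells, had 10 of 35 higher and 14 lower, with a median of -0.19. Of the dual-specificity phosphatases, which switch off MAP kinases, several were lower: Dusp4 was at 156 and 169 CPM in WT and 75.1, 76.4 and 60.7 CPM in Nono KO (log2 fold change -1.20), Dusp5 at 12.8 and 12.7 CPM in WT and 6.14, 6.04 and 4.89 CPM in Nono KO (log2 fold change -1.16) and Dusp6 at 65.1 and 64.95 CPM in WT and 31.96, 31.5 and 24.6 CPM in Nono KO (log2 fold change -1.15). Dusp1, which acts in the nucleus on stress kinases, was higher by 1.28. The transcription factors Junb and Egr3 were lower at -1.17 and -0.86. Spry1, an inhibitor of receptor tyrosine kinase signalling, was at 1.51 and 1.66 CPM in WT and 27.6, 27.5 and 24.1 CPM in Nono KO (log2 fold change 4.06, SE 0.197, edgeR adjusted p = 3.70e-13), and Klf2 and Btg2 were higher by 1.83 and 1.81. Myc was at 42.5 and 38.9 CPM in WT and 82.1, 91.5 and 72.99 CPM in Nono KO (log2 fold change 1.02).

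The stress-response genes driven by ATF4, the transcription factor of the integrated stress response, and by the unfolded protein response were higher almost throughout. Of 44 tested 36 were higher and 1 was lower (2 without Nono KO replicate 2 or 3), with a median of 0.90, and 11 were higher than in every other group. Trib3, a pseudokinase that feeds back on ATF4, was at 6.004 and 4.97 CPM in WT and 45.6, 40.4 and 53.6 CPM in Nono KO (log2 fold change 3.08, SE 0.158, edgeR adjusted p = 1.00e-12). Chac1, which degrades glutathione, was at 2.90 and 3.59 CPM in WT and 21.8, 21.3 and 25.5 CPM in Nono KO (log2 fold change 2.81). Slc7a5, a transporter of large neutral amino acids, was at 17.4 and 16.6 CPM in WT and 123, 111 and 131 CPM in Nono KO (log2 fold change 2.84). The ranges of WT and Nono KO were separate for these genes, as they were for 65.5% of all tested genes. Enzymes of serine and folate metabolism belonged to the rise: Psat1 was at 68.3 and 60.5 CPM in WT and 259.5, 263 and 254 CPM in Nono KO (log2 fold change 2.01), and Mthfd2 and Aldh1l2, mitochondrial folate enzymes, were higher by 2.67 and 2.47. Asns, asparagine synthetase, was at 50.96 and 44.8 CPM in WT and 140.4, 147 and 141 CPM in Nono KO (log2 fold change 1.58). Atf4 was at 163 and 164 CPM in WT and 377, 383 and 406 CPM in Nono KO (log2 fold change 1.25), and the chaperone Hspa5 was at 647 and 646 CPM in WT and 1252, 1239 and 1320.1 CPM in Nono KO (log2 fold change 0.97). Ern1, the sensor kinase of the unfolded protein response, was lower at -0.64. In Sox5 KO Chac1 was at 24.3, 23.7 and 20.03 CPM, and the median difference of the list between Nono KO and Sox5 KO was 0.08.

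ATF4 binds C/EBP-ATF response elements, and the letters TGATGNAA were searched on both strands in the same 250-base windows, with no other motif searched in this list. Of 37 tested members with a window, 7 held the element, against 2.47% of tested genes with a window and 3.45% of all windows. Among the members called higher it was 6 of 30 with a window. Those 30 are most of the 37, so the calls do not set members with the element apart. The list was written from general knowledge of these pathways, so its share of the element is a description and not a test. The windows of 4 of these are shown from RefSeq, GRCm38.p6, with the element in capitals (on the opposite strand it reads TTNCATCA). They lie at chr6:7693210-7693267 (minus strand, Asns), chr2:119351014-119351091 (plus strand, Chac1), chr7:126625538-126625615 (minus strand, Nupr1) and chr19:27216785-27216862 (plus strand, Vldlr).
Asns: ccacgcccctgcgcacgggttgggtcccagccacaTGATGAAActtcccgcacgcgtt
Chac1: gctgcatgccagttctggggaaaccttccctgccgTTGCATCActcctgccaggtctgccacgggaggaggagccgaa
Nupr1: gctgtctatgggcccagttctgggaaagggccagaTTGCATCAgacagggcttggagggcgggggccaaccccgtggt
Vldlr: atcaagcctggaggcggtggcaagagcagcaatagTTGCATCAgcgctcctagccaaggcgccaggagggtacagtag
The element starts 23 bases before the start of Asns, 193 before that of Chac1, 110 before that of Nupr1 and 200 before that of Vldlr. Nupr1, a small stress-induced chromatin protein, was at 11.5 and 12.2 CPM in WT and 46.05, 48.3 and 40.96 CPM in Nono KO (log2 fold change 1.93). Vldlr, a lipoprotein receptor, was at 13.8 and 12.7 CPM in WT and 43.2, 40.96 and 48.9 CPM in Nono KO (log2 fold change 1.74), and neither gene had overlapping libraries. Libraries did not overlap for 65.5% of all tested genes.

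Sterol synthesis genes were higher than in WT as a block, 23 of 26 with none lower and a median of 0.75 (2 lower with library-total scaling). Only 4 were higher than in all 3 other groups. The list's median differences from Xap5 KO and Sox5 KO were 0.42 and -0.29. Idi1, an isomerase early in the isoprenoid path, was at 96.4 and 109 CPM in WT and 284, 253 and 198 CPM in Nono KO (log2 fold change 1.25, SE 0.169, edgeR adjusted p = 2.94e-04). Sc5d, one of the last enzymes before cholesterol and a gene of chromosome 9, was at 68.2 and 72.7 CPM in WT and 186, 191 and 167 CPM in Nono KO (log2 fold change 1.36). In fatty acid and triglyceride metabolism 17 of 41 were higher and 12 lower. Lpl, lipoprotein lipase, was at 10.2 and 12.2 CPM in WT and 238, 234 and 267 CPM in Nono KO (log2 fold change 4.45), and Plin4, a lipid droplet coat protein, was at 28.1 and 31.3 CPM in WT and 9.15, 6.58 and 5.39 CPM in Nono KO (log2 fold change -2.07). Adipocyte markers summed to 12.1 to 13.6 CPM in WT and 234.1 to 267.6 CPM in Nono KO over 9 genes, and nearly all of this sum was Lpl. Of these markers 3 were tested, and Fabp4 and Lpl were higher while Pparg was lower. Their part in the lipid list was not tested.

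**Figure D3:**
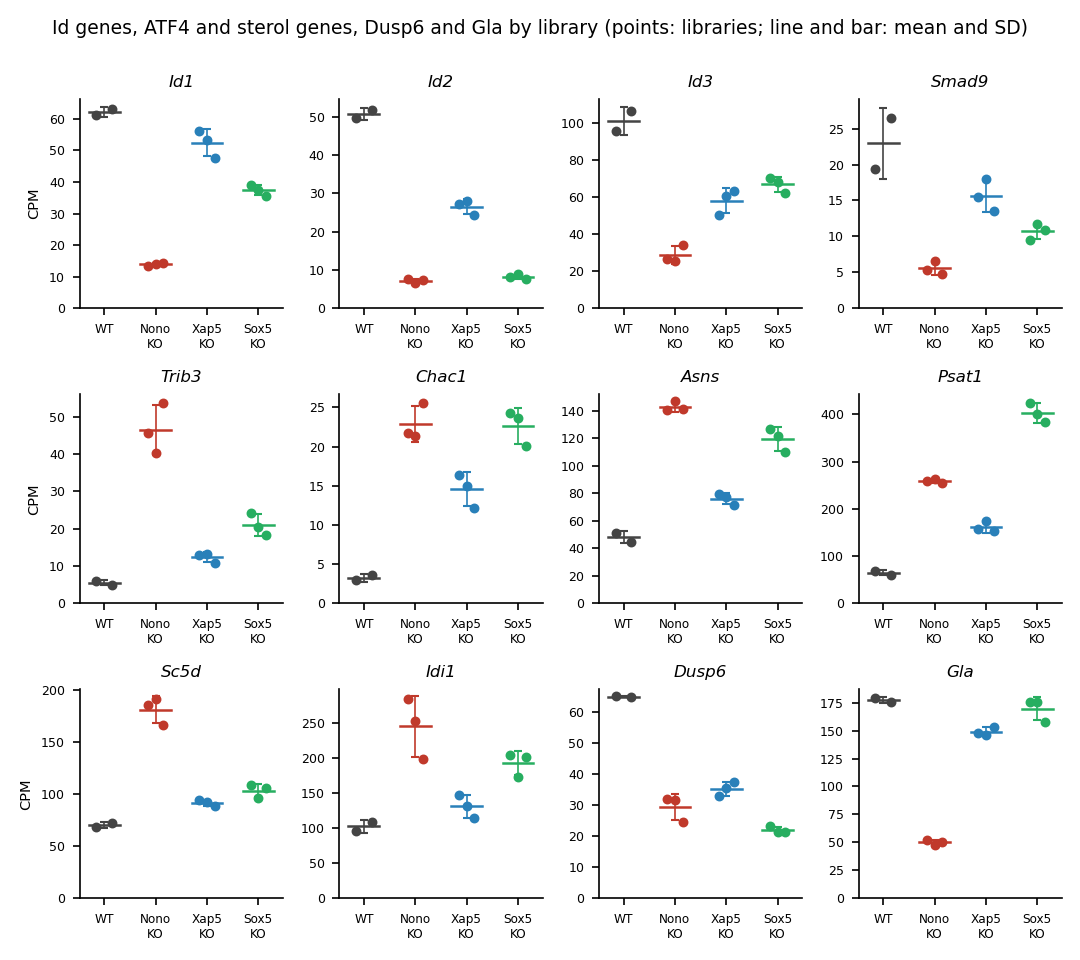
CPM (linear axis from 0) of 12 genes of BMP response, ATF4 response, sterol synthesis, ERK feedback and the lysosome in each library of the 4 groups, with group mean as a line and SD as a bar. In Nono KO the Id genes, Smad9, Dusp6 and Gla lie below WT and the ATF4 and sterol genes above it, and Gla is low in Nono KO alone, at no more than 51.7 CPM.

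Lysosomal genes were lower more often than higher, 35 of 60 against 8, with a median of -0.22, and 17 were lower than in all 3 other groups, where 9.39% of all genes met that rule. Gla, the alpha-galactosidase missing in Fabry disease, was at 179 and 175 CPM in WT and 51.7, 47.5 and 50.8 CPM in Nono KO (log2 fold change -1.83, SE 0.0632, edgeR adjusted p = 1.63e-15). Npc1, the lysosomal cholesterol exporter, was at 161 and 153 CPM in WT and 69.5, 68.97 and 71.2 CPM in Nono KO (log2 fold change -1.17). Ctsk, a collagen-degrading cathepsin, was at 83.2 and 84.9 CPM in WT and 30.4, 31.95 and 37.9 CPM in Nono KO (log2 fold change -1.33). The Nono KO libraries were below the WT libraries for all 3, where libraries did not overlap for 65.5% of all tested genes. Gla lies on chromosome X, whose median gene was at -0.33. Smaller falls were measured in the broad-acting Ctsb and Ctsl, at -0.58 and -0.65. Lipa, lysosomal acid lipase, was higher by 1.00. Of the MiT/TFE factors that control these genes, Mitf was lower at -0.73, Tfeb was higher by 0.64, and Tfec went from 0 counts in WT to 496, 467 and 406 counts in Nono KO, at least 156-fold higher.

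Cytosolic ribosomal protein genes were higher in 46 of 78 cases with none lower, with a median of 0.38. Their share of counts was 2.47% in both WT libraries and 3.11%, 2.83% and 2.78% in Nono KO. Rpsa, a protein of the small subunit, was at 654 and 673 CPM in WT and 1290.2, 1401 and 1239 CPM in Nono KO (log2 fold change 0.98), and Rpl4 of the large subunit was at 827 and 819.6 CPM in WT and 1572, 1640.4 and 1563 CPM in Nono KO (log2 fold change 0.95). Both lie on chromosome 9, whose median gene was at 0.35. No member was higher than in all 3 other groups, and the list's median difference from Sox5 KO was -0.94. Nuclear genes of oxidative phosphorylation had 23 of 72 higher and 2 lower, with a median of 0.15 (-0.01 with library-total scaling). The number higher was 11 with library-total scaling and 14 without WT replicate 1, and none was lower without Nono KO replicate 2 or WT replicate 2. Cox7a2 and Ndufb4 were among the highest, at 0.76 and 0.67, and lie on chromosomes 9 and 16, whose median genes were at 0.35 and 0.27. Of the 13 genes of the mitochondrial genome 9 were higher and none lower, with a median of 0.42, and 5 were higher without WT replicate 1. mt-Co3 was at 2985 and 2837 CPM in WT and 4369.6, 4578 and 4254 CPM in Nono KO (log2 fold change 0.60).

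In the glycolysis and hypoxia list 20 of 41 were higher and 6 lower, with a median of 0.25. Adm (adrenomedullin), a vasodilator peptide induced by low oxygen, was at 6.55 and 7.42 CPM in WT and 105, 110.1 and 93.5 CPM in Nono KO (log2 fold change 3.88, SE 0.196, edgeR adjusted p = 3.46e-08). Stc2, a secreted glycoprotein induced by hypoxia and by ATF4, was at 2.65 and 2.996 CPM in WT and 15.4, 14.6 and 15.1 CPM in Nono KO (log2 fold change 2.41). Hif1a was higher by 0.78, and the HIF prolyl hydroxylase gene Egln3 was lower at -1.26. NRF2 antioxidant genes had 11 of 44 higher and 16 lower, and 13 of the latter were lower than in all 3 other groups. Nqo1, the quinone reductase used as the standard NRF2 readout, was at 20.1 and 21.7 CPM in WT and 12.5, 12.01 and 10.1 CPM in Nono KO (log2 fold change -0.85), and Txnrd1 was lower at -0.60. The glutathione transferase Gsta3 was at 0 and 0.113 CPM in WT and 2.25, 1.53 and 1.52 CPM in Nono KO, a ratio of 29.9 (95% interval 12.6 to 93.2, exact). Heat shock chaperones had 10 of 30 higher and 7 lower, with the small chaperone Cryab at 42.3 and 49.2 CPM in WT and 125, 135 and 126 CPM in Nono KO (log2 fold change 1.49).

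Mitosis and cytokinesis genes were higher in 43 of 73 cases with none lower, with a median of 0.52, in cells starved of serum. Without WT replicate 2 the number was 25, with library-total scaling 4 were lower, and without Nono KO replicate 1 or 2 1 was lower. Cdc20, the activator of the anaphase-promoting complex, was at 16.6 and 16.4 CPM in WT and 40.9, 45.7 and 35.1 CPM in Nono KO (log2 fold change 1.297, SE 0.105, edgeR adjusted p = 1.45e-09). Spc24, a kinetochore protein, was at 2.21 and 2.18 CPM in WT and 7.30, 5.84 and 5.91 CPM in Nono KO (log2 fold change 1.53), and the cytokinesis scaffold Anln was at 49.2 and 43.7 CPM in WT and 118, 128 and 90.2 CPM in Nono KO (log2 fold change 1.27). Spc24 and Anln lie on chromosome 9, whose median gene was at 0.35. The median difference of the list from Xap5 KO was -0.38, and 3 of its members were higher in Nono KO than in every other group. S-phase genes did not share this pattern: 7 of 59 were higher and 15 lower, with a median of -0.09. The number higher was 2 without Nono KO replicate 1 or 2, 12 without Nono KO replicate 3, 3 without WT replicate 1 and 1 without WT replicate 2. The replication licensing factor Cdt1 was at 52.4 and 57.2 CPM in WT and 25.4, 27.1 and 21.2 CPM in Nono KO (log2 fold change -1.16), and the helicase subunit Mcm6 was lower at -0.70, a call lost when only the Nono KO and WT libraries were fitted.

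Of 15 tested D cyclins, CDK inhibitors and related regulators 7 were higher and 5 lower (3 lower without WT replicate 1 and 2 with the chromosome offset). Cyclin D2 (Ccnd2) was at 206 and 211 CPM in WT and 405, 409 and 429.7 CPM in Nono KO (log2 fold change 0.99), Ccnd1 was higher by 0.46, and Cdkn1a, the inhibitor p21, was at 169.7 and 175 CPM in WT and 274, 285 and 297 CPM in Nono KO (log2 fold change 0.73). Of 33 p53 targets 16 were higher and 6 lower, with a median of 0.22. Plk2 was at 62.3 and 71.7 CPM in WT and 354, 361 and 396 CPM in Nono KO (log2 fold change 2.47), whereas Pmaip1, the apoptosis gene Noxa, was at 4.44 and 6.08 CPM in WT and 0.7896, 0.755 and 0.608 CPM in Nono KO (log2 fold change -2.87).

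Clock genes were split, 7 of 26 higher and 8 lower (5 lower without WT replicate 1), with a median of 0.04 (-0.12 with library-total scaling). Among the activators, Clock was at 79.8 and 81.1 CPM in WT and 53.3, 52.6 and 48.9 CPM in Nono KO (log2 fold change -0.64). Of the repressors, Nr1d1 (REV-ERB alpha) was at 44.5 and 43.2 CPM in WT and 25.3, 29.5 and 27.1 CPM in Nono KO (log2 fold change -0.68), and Nr1d2 and Bhlhe40 were lower at -0.66 and -0.77. Others went the other way, with Per1, Per3, Bhlhe41 and Nfil3 higher by 0.44, 0.85, 0.69 and 0.80. Per2, Cry1 and Cry2 were not called. Rora, which opposes REV-ERB at the same elements, was higher by 1.15. Among output factors of the PAR bZIP family, Hlf was at 1.14 and 0.726 CPM in WT and 20.1, 15.98 and 20.3 CPM in Nono KO (log2 fold change 4.34, SE 0.185, edgeR adjusted p = 4.39e-14). Dbp of the same family was lower at -0.50, and Tef, at 0.11, was not called. All libraries are from the same single time after serum withdrawal, so no phase or amplitude can be read from these values.

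Interferon-stimulated genes had 23 of 55 higher and 3 lower, with a median of 0.44, and 14 higher under library-total scaling. Ifit3 was at 2.58 and 3.56 CPM in WT and 16.04, 17.4 and 13.6 CPM in Nono KO (log2 fold change 2.35, SE 0.182, edgeR adjusted p = 7.09e-10), and Sp100, a component of PML nuclear bodies, was at 4.61 and 3.90 CPM in WT and 19.8, 17.8 and 16.9 CPM in Nono KO (log2 fold change 2.09). In the class I antigen presentation list 10 of 19 were higher and 3 lower, among them the peptide transporter Tap1 at 11.8 and 11.6 CPM in WT and 21.4, 20.4 and 20.5 CPM in Nono KO (log2 fold change 0.83). Chemokines and cytokines had 14 of 43 higher and 7 lower. The alarmin Il33 was at 1.02 and 0.545 CPM in WT and 10.6, 8.55 and 10.5 CPM in Nono KO (log2 fold change 3.66), and Cxcl5 was at 72.9 and 75.4 CPM in WT and 399, 319.6 and 382 CPM in Nono KO (log2 fold change 2.31). Ptges, a prostaglandin synthase, was lower at -1.44. Of 18 complement genes 7 were higher and 4 lower (2 without WT replicate 2), led among the higher by C1rb and C4b at 1.77 and 1.53, the former not called when only the Nono KO and WT libraries were fitted. Leukocyte markers summed to 8.24 to 8.99 CPM in WT and 13.3 to 18.7 CPM in Nono KO over 10 genes, of which 6 were tested and 2, Ptprc and Lyz2, were higher. The other 4 were not called, and the part of these markers in the immune lists was not tested.

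NONO takes part in RNA processing. Of 61 core spliceosome genes 4 were higher and 12 lower, none by 2-fold, with a median of -0.03. Of 48 SR protein and hnRNP genes 6 were higher and 18 lower, again none by 2-fold. The lower counts rose to 29 and 30 with library-total scaling, and the second fell to 11 without either WT library. Celf2 was at 82.96 and 88.9 CPM in WT and 168, 168 and 175 CPM in Nono KO (log2 fold change 0.99), and Mbnl1, a splicing regulator of muscle, was higher by 0.66. Among 25 paraspeckle and DBHS proteins 3 were higher and 7 lower, or 13 lower with library-total scaling. Beside Pspc1 and Nono, the cleavage factor subunit Cpsf6 was at 138 and 137 CPM in WT and 101, 90.6 and 99.4 CPM in Nono KO (log2 fold change -0.50), and Fam98a was higher by 0.83.

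Transcription factors of mesenchymal identity were lower more often than higher, 25 of 61 against 14, with a median of -0.14. Foxc2, a forkhead factor of mesoderm, was at 60.9 and 60.96 CPM in WT and 17.3, 15.7 and 14.002 CPM in Nono KO (log2 fold change -1.96). Twist2 was at 181 and 186 CPM in WT and 69.1, 77.8 and 71.1 CPM in Nono KO (log2 fold change -1.34), and Nr2f1 was lower at -1.45. Foxp1 was at 15.5 and 12.6 CPM in WT and 43.8, 43.9 and 38.7 CPM in Nono KO (log2 fold change 1.58), and Twist1, the paralog of Twist2, was higher by 0.53. In the Hox clusters 5 of 22 were higher and 8 lower. In the HoxA cluster Hoxa2, Hoxa3 and Hoxa6 were lower at -1.14, -1.04 and -1.02, while HoxC genes such as Hoxc5 and Hoxc6 were higher by 1.40 and 0.83. Hoxa5, which was also lower, was at 39.2 and 40.3 CPM in WT and 17.2, 21.8 and 20.7 CPM in Nono KO. With the offset for each chromosome's median, 3 Hox genes were higher in place of 5.

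Of 6 tested Sox factors 4 were lower and none higher. Sox5, the target of another knockout in the series, was at 49.7 and 45.9 CPM in WT and 7.01, 7.57 and 8.75 CPM in Nono KO (log2 fold change -2.62). Its RNA was also called lower in Nono KO than in Xap5 KO and in Sox5 KO itself, by at least 0.79 on the log2 scale. Sox4 was at 490.0 and 511 CPM in WT and 196, 196 and 237 CPM in Nono KO (log2 fold change -1.25). Imprinted genes, expressed from 1 parental allele, had 5 of 29 higher and 12 lower, with a median of -0.43. Ndn (necdin) was nearly lost, at 36.8 and 34.7 CPM in WT and 0, 0.0731 and 0 CPM in Nono KO, a CPM ratio of WT to Nono KO of 1401 (95% interval 479 to 6799, exact). Plagl1, a zinc finger factor of the imprinted network, was at 63.9 and 64.6 CPM in WT and 17.9, 18.4 and 21.8 CPM in Nono KO (log2 fold change -1.73), and Peg3 was lower at -1.34. Retinoid genes included Aldh1a1, which makes retinoic acid, at 0.595 and 0.817 CPM in WT and 20.8, 19.99 and 18.1 CPM in Nono KO (log2 fold change 4.78), and the binding protein Crabp1 at 25.2 and 23.04 CPM in WT and 128, 139 and 107 CPM in Nono KO (log2 fold change 2.37). Of that list 8 of 21 were higher and 4 lower, with 5 higher and 2 lower without WT replicate 1. The number lower was 1 without Nono KO replicate 1 or WT replicate 2 and 2 without Nono KO replicate 3.

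Ion channel genes were changed in both directions, 13 of 32 higher and 11 lower. Kcnj2, an inward rectifier that sets the resting potential, was at 0 and 0.2496 CPM in WT and 10.7, 8.79 and 7.40 CPM in Nono KO (log2 fold change 6.08, 5.15 without WT replicate 1 and 11.38 without WT replicate 2). Kcnn4, a calcium-activated potassium channel of fibroblasts, was at 12.3 and 10.8 CPM in WT and 0.839, 0.511 and 0 CPM in Nono KO (log2 fold change -4.64, -5.41 without Nono KO replicate 1), and Kcnk3 was at 9.38 and 11.8 CPM in WT and 0.494, 0.1705 and 0.249 CPM in Nono KO (log2 fold change -5.10). Synaptic adhesion and receptor genes had 5 of 29 higher and 7 lower, or 12 lower with library-total scaling. Nrxn2, a presynaptic adhesion gene, was at 4.47 and 5.74 CPM in WT and 0.592, 1.51 and 0.801 CPM in Nono KO (log2 fold change -2.39), and Gabre, a GABA receptor subunit, was at 11.6 and 14.7 CPM in WT and 1.70, 2.36 and 1.38 CPM in Nono KO (log2 fold change -2.85).

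Some genes set Nono KO apart from WT and from both other lines. A gene was counted so when it was called with the same sign against WT, Xap5 KO and Sox5 KO, which 18.1% of tested genes were, 1161 higher and 1252 lower. These 3 comparisons share the Nono KO libraries. In Nono KO against Xap5 KO 53.0% of genes were called, and against Sox5 KO 63.5%. Beside Aspn and Pappa2, the higher genes with the largest smallest difference over the 3 comparisons included Pi15, a secreted protease inhibitor, at 1.04 and 1.36 CPM in WT and 43.2, 35.9 and 46.1 CPM in Nono KO (log2 fold change 5.11). In Xap5 KO it had 1.54, 1.95 and 2.50 CPM and in Sox5 KO 0.0928, 0.305 and 0.383 CPM. Pde5a, the cyclic GMP phosphodiesterase, was at 0.645 and 0.227 CPM in WT and 14.8, 12.3 and 14.6 CPM in Nono KO (log2 fold change 5.00, 5.92 without WT replicate 1). The lipid transporter Abca9 was at 1.34 and 0.658 CPM in WT and 12.6, 13.95 and 16.7 CPM in Nono KO, and Clec3b (tetranectin) was at 0.198 and 0.295 CPM in WT and 5.40, 4.75 and 6.68 CPM in Nono KO. Ptprc, the leukocyte phosphatase CD45, went from 0.124 and 0.0908 CPM in WT to 5.996, 7.31 and 6.68 CPM, a ratio of 62.5 (95% interval 32.7 to 137, exact), and was at 0, 0 and 0 CPM in Sox5 KO. Wdfy4 was at 0.223 and 0.0908 CPM in WT and 5.85, 4.19 and 5.77 CPM in Nono KO, and Magea8 on chromosome X was at 0 and 0.0681 CPM in WT and 8.54, 10.2 and 8.51 CPM in Nono KO. The WT means of Pde5a, Abca9, Clec3b, Ptprc, Wdfy4 and Magea8 were under 1 CPM, so their folds rest on few counts.

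Among the genes lower than in every other group, Tusc1 was at 6.72 and 6.06 CPM in WT and 0, 0.0731 and 0 CPM in Nono KO, a ratio of 250.4 (95% interval 85.2 to 1218, exact). Hs6st2, a heparan sulfate sulfotransferase on chromosome X, was at 8.58 and 5.76 CPM in WT and 0, 0.0487 and 0 CPM in Nono KO. It was also reduced in Xap5 KO, at 0.232, 0.5599 and 0.361 CPM, and higher than WT in Sox5 KO, at 33.00, 33.04 and 36.5 CPM. Rasl11a, a small GTPase, was at 32.7 and 29.6 CPM in WT and 4.52, 3.14 and 3.81 CPM in Nono KO (log2 fold change -3.03). Btg3, an antiproliferative gene, was at 13.9 and 13.4 CPM in WT and 2.64, 1.07 and 2.54 CPM in Nono KO (log2 fold change -2.71). Gsdmd, the pore-forming protein of pyroptosis, was at 10.7 and 9.74 CPM in WT and 1.75, 1.61 and 1.93 CPM in Nono KO (log2 fold change -2.54), and the histone chaperone gene Nap1l2 was at 5.90 and 6.54 CPM in WT and 0.345, 1.10 and 0.6904 CPM in Nono KO (log2 fold change -3.12). Nono, Hs6st2, Nap1l2 and Gabre, 4 of the 10 genes chosen on the lower side, lie on chromosome X.

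**Figure D4:**
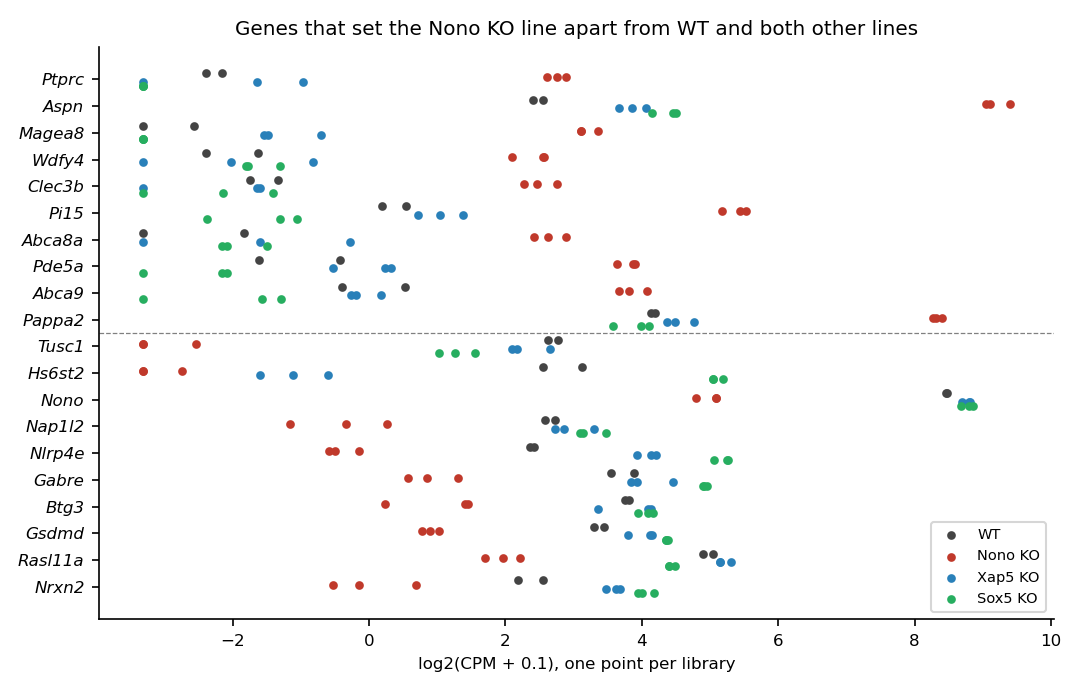
Each point is 1 library, placed by log2(CPM + 0.1), for the 10 higher (above the dashed line) and 10 lower genes with the largest smallest log2 difference of Nono KO from WT, Xap5 KO and Sox5 KO. The red Nono KO points stand to the right of all others in the upper rows and to the left in the lower rows.

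The remaining extremes against WT were genes switched between near-absence and expression. Ms4a4d, a membrane protein of the MS4A family, was at 0 and 0.0681 CPM in WT and 26.4, 24.2 and 24.4 CPM in Nono KO, a ratio of 703 (95% interval 240.3 to 3410.2, exact). Scg2 (secretogranin II), a precursor of neuropeptides, was at 0.0496 and 0.658 CPM in WT and 54.2, 57.5 and 71.9 CPM in Nono KO (log2 fold change 7.37, 6.54 without WT replicate 1 and 10.18 without WT replicate 2). Aim2, a sensor of cytosolic DNA, was at 0.223 and 0.0908 CPM in WT and 15.4, 10.4 and 11.7 CPM in Nono KO (log2 fold change 6.31, 7.06 without WT replicate 1). At the other end, the surface glycoprotein Cd24a was at 19.2 and 17.5 CPM in WT and 0.0494, 0.244 and 0.249 CPM in Nono KO (log2 fold change -6.65), and Ecel1, a neuronal endopeptidase, was at 10.9 and 10.4 CPM in WT and 0.0987, 0.0731 and 0 CPM in Nono KO. These genes were chosen for libraries that do not overlap. Of them, Aim2 met the rule of differing the same way from WT and both other lines. Ms4a4d, Scg2, Cd24a and Ecel1 did not meet it. Among extremes given earlier, Grem1, Mmp3, Tfec and Ndn did not meet it either, while Actg2 and Kcnj2 did.

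All 9 tested genes of chromosome Y were lower, among them Ddx3y, an RNA helicase, at 101 and 102 CPM in WT and 0.0494, 0.244 and 0.221 CPM in Nono KO, and Eif2s3y, a translation initiation factor, with 1184 and 1510.0 counts in WT and 0 in each Nono KO library, at least 384-fold lower. Y-linked counts were also near 0 in both other knockout lines, as Ddx3y shows with 0, 0 and 0 CPM in Xap5 KO and 0, 0 and 0 CPM in Sox5 KO. On chromosome X 49 of 438 genes were higher and 217 lower, and on chromosome 9 384 of 734 were higher and 42 lower. On chromosome 16 178 of 404 were higher and 35 lower. The shift of chromosome 9 was found in each Nono KO library, at 0.31, 0.32 and 0.34 on the log2 scale relative to the WT mean. No annotation of copy number was used, and copy number was not measured.

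**Figure D5:**
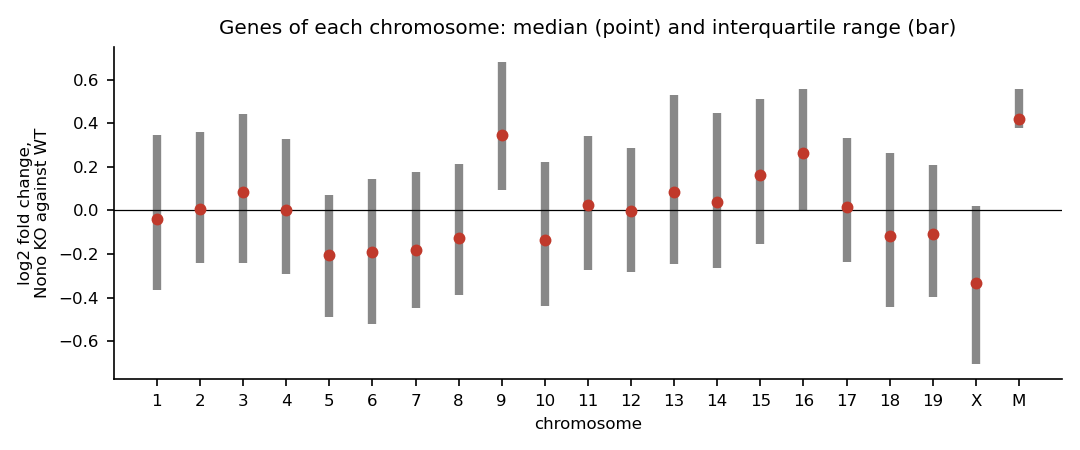
For each chromosome, the red point is the median log2 fold change of its tested genes in Nono KO against WT and the grey bar is the interquartile range over its genes; chromosome Y, with 9 genes, lies off the scale and is left out. Chromosomes 9 and 16 and the mitochondrial genome (M) lie above 0, and chromosomes X, 5, 6 and 7 lie below it.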

How the data were processed

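RNA was sequenced from 11 libraries of serum-starved NIH/3T3 cells (WT 2; Xap5 KO, Nono KO and Sox5 KO 3 each), and 0 columns lacked a sample. The deposited table holds the authors' estimated counts per gene as whole numbers, read as not normalized because library totals differ; the submitters' processing notes name HISAT2 2.1.0, StringTie 1.3.3b and DESeq2 1.12.4, with no role or order. Annotation, strand, and counting of read mates are not given in the sources used here. The value 2 occurs 3302 times and the value 1 only 857 times, so a count may not be 1 molecule, and intervals, exact at 95%, and floors of 3 counts a library cover counting error only.

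All 11 libraries were fitted together with edgeR 4.0.16 (R 4.3.3; TMM factors, quasi-likelihood F test, 7 residual degrees of freedom, no covariates). Genes needed about 10 counts in a group's worth of libraries and 15 in all (edgeR's filterByExpr), and a gene was called at a Benjamini-Hochberg adjusted p under 0.05. The common biological coefficient of variation was 10.6%. The fit was checked on simulated data with far fewer changed genes than were called here, so that check does not cover such a share of calls. Lists were described by counts and medians, with no set test; 51 lists and 8 marker lists were used. Their members, and the choice of comparison, were made with earlier results of these data known.

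Named genes were the 12 called genes with the highest and the 12 with the lowest fold change at 5 CPM or more and no overlap of libraries, up to 3 called members at each end of a list at 1 CPM or more, the 10 in each direction with the largest smallest difference from all 3 other groups, Nono and markers. This gave 303 genes, and 72 more were named after their values were seen. Of all of these, 41 share at least 10% of exon bases with another gene and are uncertain without strand (in the text Adamts9, Aldh1l2, Angpt1, Btg3, Ccn2, Ccnd1, Cryab, Ctsb, Ctsl, Dusp5, Fbn1, Gpc1, Hoxa2, Hoxa3, Hyal1, Igf2, Lef1, Sox4, Spry1, Tagln, Twist2 and Vcl). Ribosomal protein genes, C1rb, C4b and Magea8 have near copies whose reads may be shared. Chromosome, length and GC content came from GENCODE M21 and promoter windows from RefSeq, both on GRCm38, while the processing notes name GRCm39. The printed positions of promoter windows are therefore those of GRCm38, and no other gene coordinates are printed.

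Alternatives were DESeq2 1.42.0, library-total scaling, no count filter, a replicate block, the 5 Nono KO and WT libraries alone, each replicate left out, an offset per chromosome, a 2-fold minimum, a mean of at least 10 counts for list medians, and, chosen after seeing the data, a loess offset that removes the trend with length and GC.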

Additional observations from a re-analysis of the deposited data

How the results depend on the processing

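With a 2-fold minimum, 867 genes were higher and 624 lower in Nono KO than in WT. Library-total scaling raised the genes lower than in all 3 other groups from 1252 to 1895, and it turned 4 named genes, none of them called, to -0.12 (Acvr1), -0.042 (Bmpr1a), -0.13 (Bmpr2) and -0.069 (Sfpq). It also gave negative medians, where the main ones were positive, to the lists of Wnt (-0.03), TGF-beta (-0.12), clock (-0.12), nuclear oxidative phosphorylation (-0.01), fatty acid (-0.01), heat shock (-0.05), secreted factor (-0.12) and retinoid genes (-0.07). The remaining alternatives moved no count of called genes by over 1.5 times. Against WT, DESeq2 gave 3305 higher and 3215 lower, the table without the count filter 3087 and 3243, the 5 libraries alone 3262 and 3115, the chromosome offset 3064 and 2901, and the length and GC offset 3347 and 2933. Leaving out 1 Nono KO or WT library gave 2564 to 3035 higher and 2556 to 3200 lower. It gave 3182 to 3550 higher and 3303 to 3418 lower against Xap5 KO, 3871 to 4169 and 4115 to 4225 against Sox5 KO, and 1043 to 1077 and 990 to 1180 against all 3 groups. Same-numbered Nono KO and WT libraries hardly deviated together (r 0.046 and 0.030 across genes). With 2 WT libraries, whose deviations from their mean mirror each other, this cannot show whether the numbers pair samples. The replicate block gave 3070 higher and 3270 lower and ended the call of 6 named genes. Over all alternatives, named genes lost their call 122 times and kept call and direction 4370 times; 86 list counts and 169 list medians moved beyond their limits, against 1162 and 507 that did not. The causes were not tested. With 2 WT libraries, genes under about 1 CPM in WT have folds that rest on few counts.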
